A study of Drosophila melanogaster with 6 samples.

Results

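Of the genes listed as different after penetrating traumatic brain injury (PTBI) in the adult *Drosophila* head, 32 are described here. They carried a gene name of their own and were lower 4 hr after injury than in uninjured heads. Left out were the cytochrome P450, larval serum protein, odorant-binding and cuticle protein families, a few genes of sugar, arginine and glial biology, and *fit*. RPKM is a read count divided by exon length and by library size. The 32 genes were chosen by their symbol and by a mean RPKM in PTBI samples below that in control samples. They are 32 of the 367 genes in the deposited listing and 32 of the 108 listed as lower. Because this contrast chose the genes, their lower level is a description here and was not tested. The choice left out the symbol *apolpp*, which is the current name of the gene listed as *Rfabg*; it followed the listed symbols, so *Rfabg* is kept. *Sodh-1*, *Ugt37b1* and *Cct2* are now called *Sodh1*, *Ugt37B1* and *Pcyt2*.

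RNA-Seq was run on whole heads of young adult males, with 3 samples from males injured in both hemispheres of the central brain 4 hr earlier and 3 samples from uninjured males matched for age. In both groups the flies came from crossing w; UAS-mCD8-GFP;; OK107-GAL4 with yw, so the controls carried the GFP transgene too, which OK107-GAL4 drives chiefly in mushroom body neurons. The flies were taken within 6 hr of eclosion, and each sample was a pool of about 100 to 120 heads, called a biological replicate in the labels. Injury was made with a sterilized needle through the head capsule under CO2, and whether the controls were anesthetized is not stated in the sources used here. Library sizes, rebuilt from steps in the RPKM values, were 24.3 to 35.2 M reads in PTBI samples and 26.5 to 36.2 M reads in controls. Only genes past the authors' own limits (2-fold and an adjusted p below 0.05) are in the listing, and other genes have no value here.

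The fly head holds more than the brain. Fat body lines the capsule, stores fat and sugar and secretes lipoproteins and enzymes into the hemolymph. Epidermis makes cuticle, glia ensheath the neurons, and hemocytes patrol the hemolymph. The 32 genes fall into roles from several of these settings: metabolic enzymes and lipid carriers, esterases, transporters, surface and apical matrix proteins, sugar-binding lectins and the glue of the larval salivary gland. In bulk heads, fewer cells of a type and less RNA per cell cannot be told apart. In the lists of cell type markers, the 4 neuronal, 6 glial, 6 hemocyte, 5 muscle and 5 photoreceptor markers were not listed in either direction. Those listed as lower were themselves members: *Rfabg* of 5 fat body markers, *Sgs3* and *Sgs5* of 4 salivary gland markers and *FASN2* of 3 oenocyte markers. Oenocytes are hydrocarbon-making cells, and whether these heads held any was not tested. These lists are short. Besides *Rfabg*, the fat body list held *Fbp1* and yolk protein genes. All samples were from males, so the absence of yolk protein genes from the listing says little about fat body. Genes of the same cell types that the choice left out were also listed as lower. Of fat body, *Lsp2* averaged 74.8 ± 34.4 RPKM in PTBI heads and 884 ± 264 RPKM in control heads, *Lsp1beta* 6.42 ± 0.752 RPKM in PTBI heads and 45.9 ± 19.8 RPKM in control heads, and *fit* 1.71 ± 1.68 RPKM in PTBI heads and 15.2 ± 8.03 RPKM in control heads (SD, n = 3 each). Of glia, *wrapper* averaged 8.36 ± 0.659 RPKM in PTBI heads and 25.3 ± 1.25 RPKM in control heads, and *Mdr65*, a transporter of the blood-brain barrier, 13.8 ± 0.610 RPKM in PTBI heads and 36.3 ± 2.92 RPKM in control heads (SD, n = 3 each). The part of these cell types in the lower levels of the 32 genes was not tested.

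Over the 32 genes the median fold was 2.36 (control mean over PTBI mean, with 2 genes at 0 after PTBI taken at their lower bounds), against 2.56 over the other 76 genes listed as lower. Without *Rfabg* it was 2.34. Most differences were moderate: 19 genes were between 2 and 2.5-fold lower, 5 between 2.5 and 3-fold, and 8 at 3-fold or more, the last including those 2 genes, *Sgs3* and *Sgs5*. Of all listed genes, 7.36% were at least 3-fold lower, and the share among the genes listed as lower was 25% both for these genes and for the others. Every PTBI sample lay below every control sample for all 32 genes, as for 29.4% of the listed genes, which is all those listed as lower. The listing itself was selected on this contrast, so nothing is read from that separation. The member nearest the edge of the rule was *Taldo*, 2.01-fold lower, and the listed gene nearest on the other side was *CG18171*, 1.93-fold higher.

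**Figure D1:**
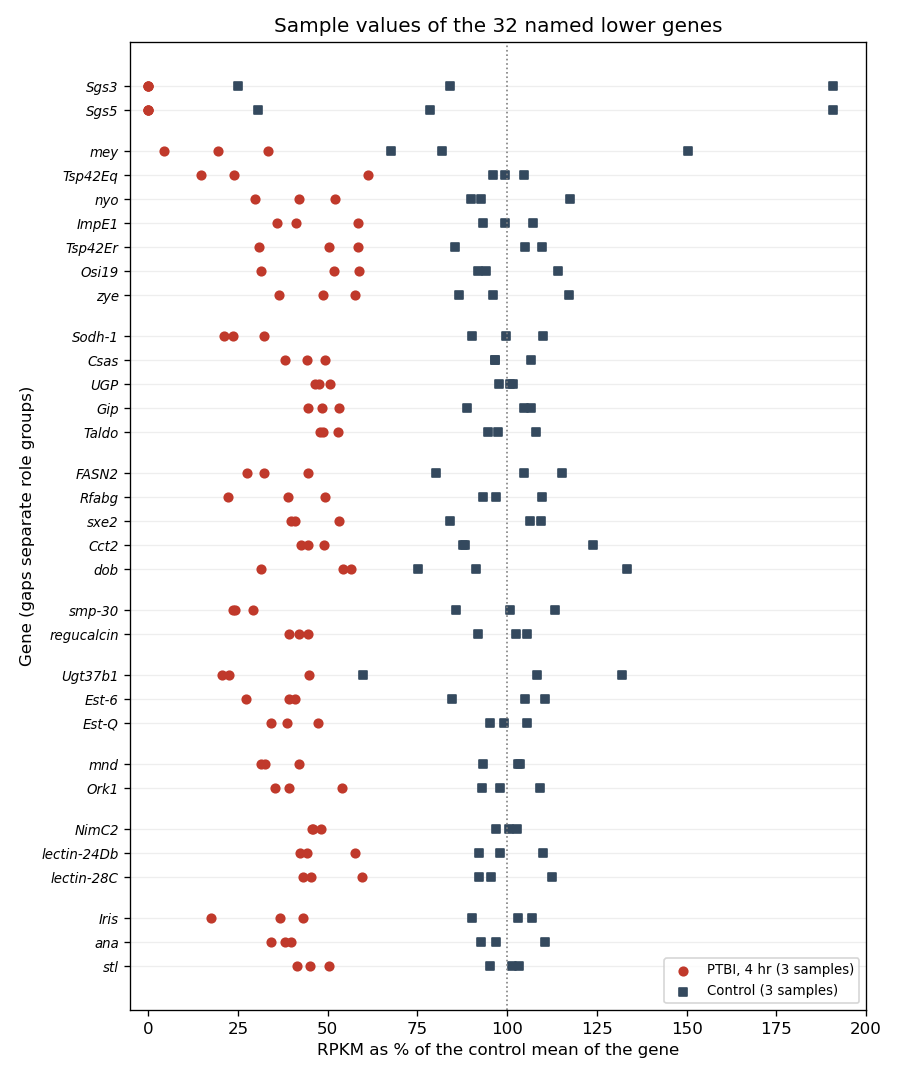
Values of the 32 genes in the 3 PTBI samples (circles) and the 3 control samples (squares), each as a percentage of the mean RPKM of that gene in controls, with genes down the page in role groups. PTBI means lay between 19.1 and 49.8% of the control mean for the 30 genes with reads after PTBI, and *Sgs3* and *Sgs5* lay at 0.

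Control levels ran from 0.217 RPKM for *mey* to 404 RPKM for *Rfabg*. The 7 genes at 100 RPKM or more in controls, *Rfabg*, *Est-6*, *Taldo*, *Sodh-1*, *UGP*, *regucalcin* and *sxe2*, are known or predicted enzymes, a hemolymph lipid carrier and a member of the SMP30 family. The 6 genes under 1 RPKM in controls were *Sgs3*, *Sgs5*, *mey*, *nyo*, *Ugt37b1* and *Tsp42Eq*, and their median fold was 4.32, again with the glue genes at their bounds. It was 2.17 for the 10 genes between 1 and 10 RPKM, 2.28 for the 9 between 10 and 100 RPKM and 2.39 for the 7 above. The low genes rest on few reads, with under 100 reads over the 3 PTBI samples for 8 of the 31 genes whose reads could be rebuilt. No relation of fold to level is drawn from these values, since the listing keeps only genes past a fold and a p limit.

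**Figure D2:**
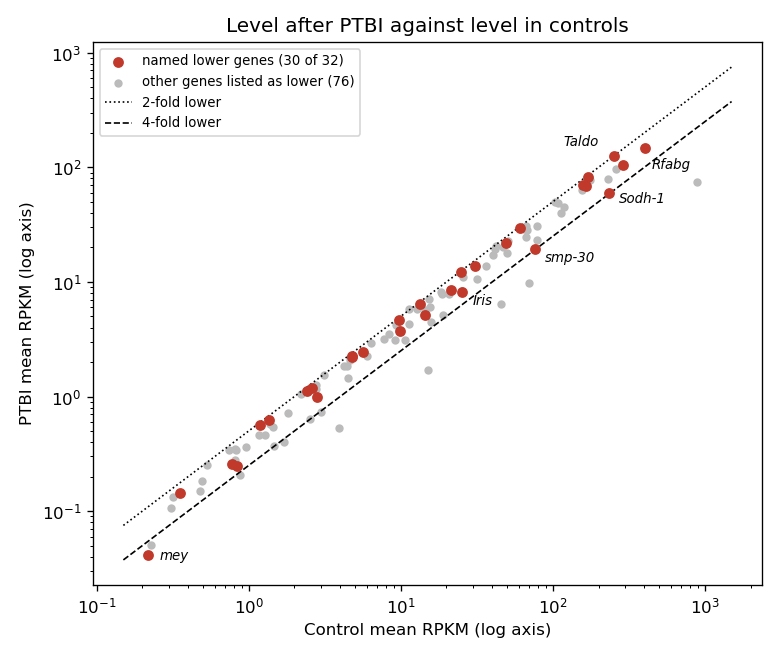
Mean RPKM after PTBI (y axis, log scale) against mean RPKM in controls (x axis, log scale) for 30 of the 32 genes (red) and the other 76 genes listed as lower (grey), with lines at 2-fold and 4-fold lower. *mey* lay beyond the 4-fold line, *Sodh-1* and *smp-30* lay at 3.89-fold just inside it, and *Taldo* lay at the 2-fold line.

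Enzymes of sugar and nucleotide-sugar metabolism made up 5 of the genes, and 4 of them lay close to a 2-fold difference. *Sodh-1* (chromosome 3R, 7052335 to 7054541 as the whole gene in the BDGP6 assembly, which all positions refer to), a sorbitol dehydrogenase that turns sorbitol into fructose, had 55.2, 49.6 and 75.9 RPKM in PTBI heads, against 234, 212 and 258 RPKM in control heads. The highest PTBI sample was 2.79-fold below the lowest control sample, and the mean was 3.89-fold lower, a log2 difference of -1.96 (standard error 0.17, log2(RPKM + 1) scale). *Csas*, which activates sialic acid for transfer to glycans, had 18.9, 24.3 and 21.9 RPKM in PTBI heads and 47.8, 47.8 and 52.6 RPKM in control heads, 2.28-fold lower. No PTBI sample of *Csas* reached the controls, the highest being 1.96-fold below the lowest of them. *UGP*, whose product makes UDP-glucose, the sugar donor for glycogen and for many glycosylation steps, had 80.6, 78.6 and 85.8 RPKM in PTBI heads, against 171, 165 and 172 RPKM in control heads, 2.07-fold lower. The samples of *UGP* lay close together, the highest being 1.09 times the lowest in PTBI heads and 1.04 times in control heads. *Taldo* encodes transaldolase of the pentose phosphate pathway and was at 133, 121 and 123.2 RPKM in PTBI heads and 246, 239 and 272 RPKM in control heads. *Gip*, a predicted hydroxypyruvate isomerase, averaged 29.6 ± 2.62 RPKM in PTBI heads and 60.8 ± 5.98 RPKM in control heads (SD, n = 3 each). In a list of carbohydrate enzymes and regulators that holds none of these 5, and neither of *AGBE* and *tobi*, 29 genes were annotated: none was listed as lower, and *CG10924* and *Amy-p* were listed as higher. The glycogen branching enzyme gene *AGBE*, at 48.9 ± 3.01 RPKM in PTBI heads and 108 ± 4.58 RPKM in control heads, and the glucosidase gene *tobi*, at 9.69 ± 5.91 RPKM in PTBI heads and 70.2 ± 18.6 RPKM in control heads (SD, n = 3 each), were listed as lower outside it.

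The 5 genes of lipid handling were between 2.11 and 2.88-fold lower, at control levels from 2.83 to 404 RPKM. *Rfabg* (chromosome 4, 1060969 to 1077273) encodes the apolipophorin precursor, the main lipid carrier of the hemolymph, made in fat body. It had 89.8, 158 and 198 RPKM in PTBI heads, against 377, 391.5 and 443 RPKM in control heads, 2.72-fold lower. The PTBI samples were spread more widely than the controls, at 22.2, 39.0 and 49.1% of the control mean, and the log2 difference was -1.51 with a standard error of 0.28. *FASN2*, a fatty acid synthase known from oenocytes (chromosome 2L, 3043947 to 3056143), had 1.26, 0.911 and 0.777 RPKM in PTBI heads and 2.96, 2.26 and 3.26 RPKM in control heads, 2.88-fold lower. *sxe2*, a lipase-family gene known to act downstream of the sex determination pathway in fly heads, had 64.7, 63.1 and 84.4 RPKM in PTBI heads, against 133, 169 and 174 RPKM in control heads, 2.24-fold lower. PTBI replicate 3 was the highest of the injured samples for both *Rfabg* and *sxe2*, and the lowest for *FASN2*. *dob*, a homolog of the brummer fat-storage lipase, averaged 2.26 ± 0.664 RPKM in PTBI heads and 4.78 ± 1.44 RPKM in control heads, and *Cct2*, an enzyme gene of phospholipid synthesis, averaged 13.9 ± 1.03 RPKM in PTBI heads and 30.6 ± 6.31 RPKM in control heads (SD, n = 3 each). Control replicate 2 was above the other controls for both. Of 34 annotated genes in a list of fatty acid and lipid metabolism, *FASN2* alone was listed, and the other 33 were in neither direction of the listing. That list does not hold *Rfabg*, *sxe2*, *Cct2* or *dob*, so it does not cover the lipid genes seen as lower here.

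Both fly genes of the SMP30 family in the listing were lower. This family is known in mammals from regucalcin, a calcium-binding protein with lactonase activity. *smp-30* (chromosome 3R, 14745901 to 14751246) had 18.3, 18.0 and 22.2 RPKM in PTBI heads, against 76.7, 65.2 and 86.2 RPKM in control heads. The highest PTBI sample was 2.93-fold below the lowest control sample, the widest gap of the 30 genes with reads after PTBI, where the median gap was 1.80-fold and the narrowest 1.33-fold. *regucalcin* (chromosome X, 12012377 to 12017375) had 64.9, 73.3 and 69.3 RPKM in PTBI heads and 152, 174 and 169 RPKM in control heads. Its fold of 2.39 was smaller than the 3.89 of *smp-30*, at a control level about as high as that of *UGP*. The log2 differences were -1.90 for *smp-30* (standard error 0.14) and -1.24 for *regucalcin* (standard error 0.10), and the difference between the genes was not tested.

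*Est-6* and *Est-Q* are carboxylesterases, and *Ugt37b1* is a UDP-glycosyltransferase, an enzyme class that makes small lipophilic compounds soluble. *Est-6* (chromosome 3L, 12188818 to 12190705), a secreted enzyme, had 79.1, 119 and 114 RPKM in PTBI heads, against 245, 320 and 304 RPKM in control heads, 2.79-fold lower. *Est-Q* had 10.02, 8.23 and 7.28 RPKM in PTBI heads and 21.1, 20.3 and 22.4 RPKM in control heads, 2.497-fold lower. The replicates ran differently in the 2 esterases, with PTBI replicate 1 the lowest for *Est-6* and the highest for *Est-Q*. *Ugt37b1* rests on 9, 8 and 23 reads in PTBI heads, against 26, 57 and 51 reads in control heads, 3.41-fold lower in RPKM. Its fold was 2.97 without PTBI replicate 1 and 2.87 without control replicate 3, and stayed above 3 with any other sample left out. Its place among the genes at 3-fold or more thus rests on single samples. Its PTBI replicate 3 and control replicate 1 came within 3 reads of each other, and in RPKM, which corrects for library size, they were at 0.376 and 0.501. Of 13 annotated genes with an esterase symbol (Est- or alpha-Est), these 2 were listed as lower and none as higher, and of 35 genes with a Ugt symbol, *Ugt37b1* and *CG5999* were lower and none higher.

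Of the membrane transport genes, *mnd* (minidiscs; chromosome 3L, 14985100 to 14991667), an amino acid transporter known for leucine uptake, had 4.72, 6.10 and 4.55 RPKM in PTBI heads, against 15.01, 13.5 and 14.9 RPKM in control heads. Its mean was 2.83-fold lower, with a log2 difference of -1.35 (standard error 0.12). *Ork1* encodes a potassium leak channel that holds the resting potential of neurons and muscle. It had 2.00, 3.07 and 2.22 RPKM in PTBI heads and 5.28, 6.19 and 5.56 RPKM in control heads, 2.34-fold lower. PTBI replicate 2 was the highest injured sample for both genes. In a list of 30 other annotated membrane transporters, which does not hold *Mdr65*, none was listed as lower and *Mco1* was listed as higher.

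The 3 recognition genes were between 2.03 and 2.15-fold lower. *NimC2* belongs to the Nimrod family of EGF-repeat receptors, some of which take up bacteria and dead cells into hemocytes. It had 2.29, 2.19 and 2.17 RPKM in PTBI heads, against 4.88, 4.78 and 4.60 RPKM in control heads. Its highest sample was 1.06 times the lowest within each group, the smallest ratio among the PTBI samples of the 30 genes with reads after PTBI. The C-type lectins, which bind sugars on microbes or host cells, were represented by *lectin-24Db*, at 5.96, 7.74 and 5.68 RPKM in PTBI heads and 13.2, 14.8 and 12.4 RPKM in control heads, and by *lectin-28C*, at 10.8, 11.3 and 14.8 RPKM in PTBI heads and 23.8, 27.998 and 22.9 RPKM in control heads.

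*ana* (anachronism; chromosome 2R, 9062295 to 9077554) encodes a glycoprotein that glia secrete in the larval brain, where it keeps neuroblasts from dividing too early. In PTBI heads it had 3.37, 3.95 and 3.78 RPKM, against 9.18, 10.9 and 9.60 RPKM in control heads. Its mean was 2.68-fold lower, and the highest injured sample was 2.32-fold below the lowest control. *Iris*, a host gene derived from a retroviral envelope gene (chromosome 2L, 1132332 to 1134098), had 4.40, 11.0 and 9.28 RPKM in PTBI heads and 22.9, 27.1 and 26.1 RPKM in control heads, 3.09-fold lower. PTBI replicate 1 lay well below the other injured samples, and without it the fold was 2.51. *stl* (stall), an ADAMTS-family metalloprotease known from the ovary, had 1.08, 1.17 and 1.31 RPKM in PTBI heads, against 2.64, 2.69 and 2.48 RPKM in control heads, 2.19-fold lower. The highest sample of *stl* was 1.22 times the lowest in PTBI heads and 1.08 times in control heads. Its log2 difference was -0.72 (standard error 0.09).

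**Figure D3:**
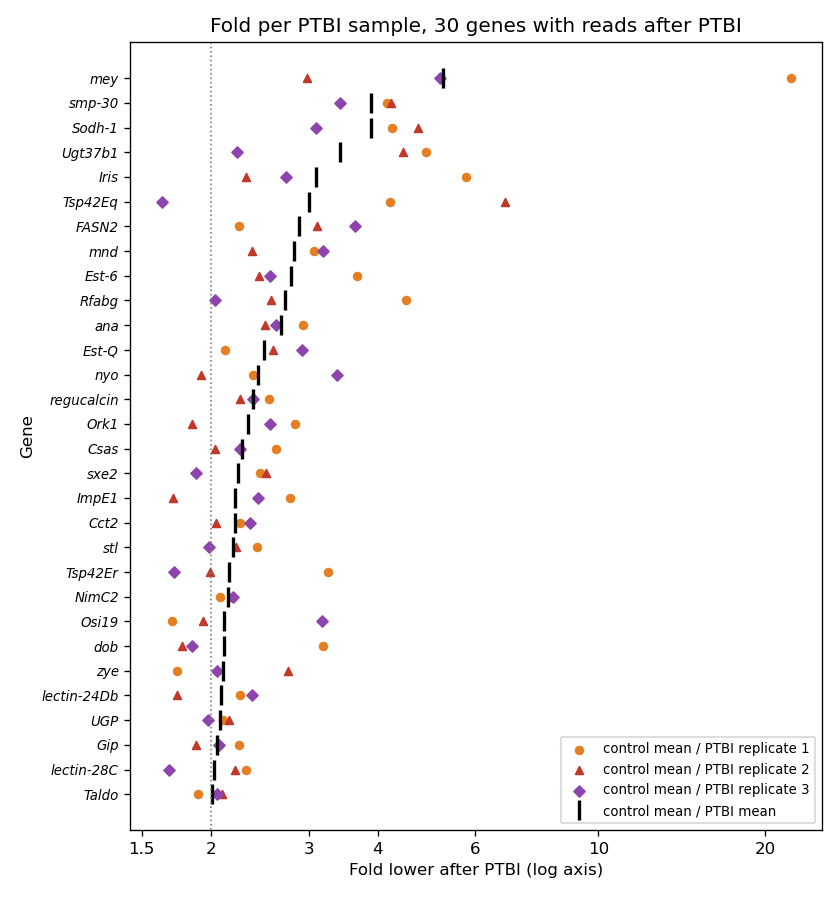
Fold lower after PTBI (x axis, log scale) for the 30 genes with reads after PTBI, as control mean over the value of each PTBI replicate (symbols) and over the PTBI mean (bar), with a dotted line at 2-fold. PTBI replicate 1 was the lowest injured sample for 15 of the genes, among them *mey*, *Iris*, *Est-6* and *Rfabg*.

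Genes of the apical matrix and the epithelial surface formed the largest role group, with 7 members, and all were below 10 RPKM in controls. *mey* (morpheyus; chromosome 3R, 31499235 to 31506992), *nyo* (nyobe; chromosome 3R, 31543032 to 31566165) and *zye* encode zona pellucida domain proteins of the matrix that shapes the embryonic epidermis. *mey* averaged 0.0415 ± 0.0315 RPKM in PTBI heads and 0.217 ± 0.0963 RPKM in control heads (SD, n = 3 each). It had 1, 6 and 5 reads in PTBI heads and 33, 18 and 16 reads in control heads, 5.24-fold lower in RPKM. The fold was 3.79 without PTBI replicate 1, which held a single read, 8.40 without replicate 2 and 4.24 by group medians. *nyo* had 17, 17 and 14 reads in PTBI heads, against 47, 45 and 32 reads in control heads, 2.43-fold lower in RPKM. Both genes rest on few reads, and in neither did a PTBI sample reach a control. *zye* was far better covered, and averaged 4.65 ± 1.04 RPKM in PTBI heads and 9.78 ± 1.53 RPKM in control heads (SD, n = 3 each). The tetraspanin *Tsp42Eq* had 6, 3 and 18 reads in PTBI heads and 26, 29 and 22 reads in control heads, 3.00-fold lower in RPKM. Its fold was 2.63 without PTBI replicate 1, 2.35 without replicate 2 and 5.18 without replicate 3, so its place among the genes at 3-fold or more rests on single samples. *Tsp42Er*, another tetraspanin, averaged 1.12 ± 0.342 RPKM in PTBI heads and 2.41 ± 0.310 RPKM in control heads (SD, n = 3 each). *Osi19*, of the Osiris family of membrane proteins in cuticle-secreting epithelia, averaged 0.562 ± 0.168 RPKM in PTBI heads and 1.19 ± 0.146 RPKM in control heads (SD, n = 3 each). *ImpE1*, an ecdysone-induced gene of imaginal disc morphogenesis, averaged 0.618 ± 0.161 RPKM in PTBI heads and 1.37 ± 0.0954 RPKM in control heads (SD, n = 3 each).

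The glue genes *Sgs3* (chromosome 3L, 11512221 to 11513402) and *Sgs5* (chromosome 3R, 17595362 to 17596112) encode proteins that the larval salivary gland secretes to fix the pupal case to its support. Neither had a read in any PTBI sample. *Sgs3* had 43, 23 and 5 reads in control heads and *Sgs5* had 28, 14 and 4 reads, which are means of 0.682 ± 0.573 RPKM and 0.774 ± 0.637 RPKM (SD, n = 3). The controls of the 2 genes ran in the same order although the genes lie on different chromosomes: as a percentage of its control mean, *Sgs3* was at 191, 84.1 and 24.9% and *Sgs5* at 191, 78.6 and 30.6% in control replicates 1, 2 and 3. With the 3 PTBI samples together set at a floor of 3 reads, the fold was at least 22.6 for *Sgs3* and at least 14.7 for *Sgs5*. Without control replicate 1 these bounds were 12.3 and 8.04. Control replicate 1 was also the highest control for 5 of the 7 genes of the apical matrix and epithelial surface (*mey*, *nyo*, *zye*, *Osi19* and *Tsp42Eq*), and for 9 of the 32 genes in all, a count made after the values were seen. Without it, these 5 genes were 3.91, 2.21, 1.92, 1.97 and 2.93-fold lower, in the same order. Whether that sample differed from the other controls in another way was not tested. Of 12 annotated genes of the larval glands, *Sgs3* and *Sgs5* were listed, both as lower.

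**Figure D4:**
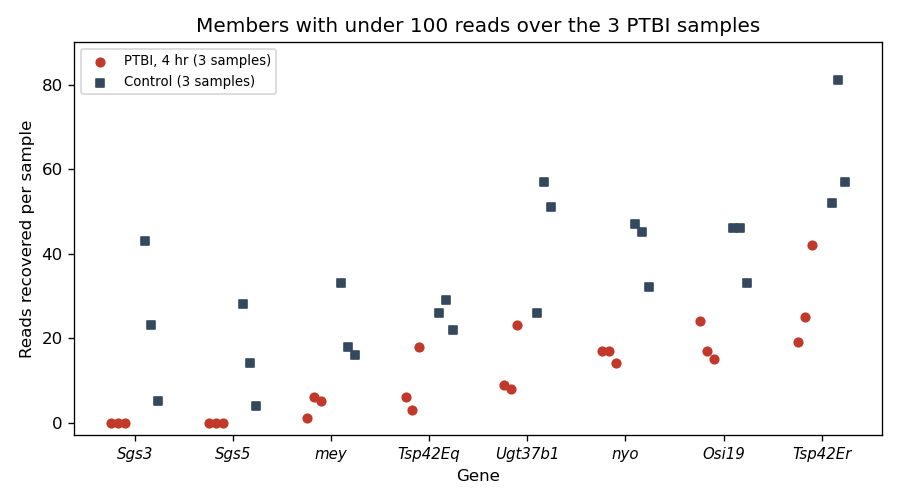
Reads recovered in each of the 3 PTBI samples (circles, left) and the 3 control samples (squares, right) for the 8 genes with under 100 reads over the PTBI samples. *Sgs3* and *Sgs5* had no read after PTBI, and the injured samples of *Tsp42Eq* ran from 3 to 18 reads.

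Some families held genes that were listed in opposite directions. These families were looked up after the members were known. Of 17 annotated Tsp42E genes, *Tsp42Eq* and *Tsp42Er* were lower, while *Tsp42Eb* was at 8.19 ± 3.95 RPKM in PTBI heads and 1.20 ± 0.170 RPKM in control heads (SD, n = 3 each), 6.82-fold higher. Of 10 Nimrod genes, *NimC2* was lower and *NimB1*, 15037 bp away on chromosome 2L, was at 10.8 ± 1.80 RPKM in PTBI heads and 3.92 ± 0.456 RPKM in control heads (SD, n = 3 each), 2.74-fold higher. Of 13 genes with a lectin symbol, *lectin-24Db* and *lectin-28C* were lower, and *lectin-24A* was 5.57-fold higher, at 2.45, 5.78 and 5.31 RPKM in PTBI heads, against 1.24, 0.454 and 0.735 RPKM in control heads. Of 23 Osiris genes, *Osi19* was lower and *Osi6* was 3.14-fold higher, on 16, 10 and 18 reads in PTBI heads and 6, 4 and 4 reads in control heads. Members of one family thus stood on both sides of the listing, and the remaining members of these families were not listed.

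The 32 genes lie on all major chromosome arms, with 6 on 2L, 5 on 2R, 9 on 3L, 7 on 3R, 4 on X and 1 on chromosome 4. Few were neighbours. *Tsp42Eq* and *Tsp42Er* lie next to each other on chromosome 2R, 829 bp apart on opposite strands and with no annotated gene between them. *mey* and *nyo* lie 36039 bp apart on chromosome 3R in the same direction, with 1 gene between them. *Est-6* lies 957 bp from *CG6910*, another gene listed as lower, with 2 annotated genes between them. Exons of 11 of the genes overlap an annotated gene or element on the opposite strand, those of *Csas*, *UGP*, *Gip*, *Rfabg*, *Est-6*, *regucalcin*, *NimC2*, *lectin-28C*, *Iris*, *ana* and *stl*, and *Cct2* shares exon sequence on its own strand with its neighbour *Pcyt1*. Reads were strand-specific, but the sources used here do not give the strand setting with which they were counted.

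Together, the 31 genes with rebuilt reads took 2914 ± 724 RPM (reads scaled to library size alone) in PTBI heads and 7617 ± 546 RPM in control heads (SD, n = 3 each). *Rfabg* alone held 49.2 to 65.2% of these reads in PTBI samples and 61.4 to 63.5% in control samples. Without it, the sums were 1166 ± 79.6 RPM in PTBI heads and 2867 ± 151 RPM in control heads (SD, n = 3 each), and the injured samples were closer to each other. PTBI replicate 1 had the lowest median level of the injured samples, at 37.1% of the control mean over the 32 genes, with 43.8% in replicate 2 and 42.1% in replicate 3. It was the lowest injured sample for 15 of these genes, against 7 for replicate 2 and 8 for replicate 3, and for 37 of the other 76 genes listed as lower. Replicate 1 was also the lowest for 148 of the 259 genes listed as higher, so its low rank is found in genes of both directions.

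Lists of other functions were also looked up, and they leave out the families and single genes that the choice left out. They hold only some of the members: the detoxification list, for one, has neither *Est-Q* nor *Ugt37b1*. The share of lower genes over all annotated genes was not computed, so nothing is read from these counts. Of 31 annotated genes in a list of hormone signalling and breakdown, *ImpE1* was listed as lower, and *ImpL2* and *ImpL3* as higher. *ImpL3* encodes lactate dehydrogenase, a metabolic enzyme, although it was placed in that list. The list of 19 circulating and growth factor genes of the fat body had only *regucalcin* listed. That list too holds yolk protein genes, in samples that were all from males. Among 18 detoxification genes outside the cytochrome P450 family, 2 were lower, *Est-6* and *CG5999*, and 2 higher, *GstD2* and *GstD5*, while 7 *Cyp* genes were listed as lower and none as higher. None was listed as lower among 23 genes of amino acid and tyrosine metabolism, 21 of phototransduction, 10 of the circadian clock, 24 neuropeptide and receptor genes, 22 digestive proteases and 23 genes of pigment and cuticle tanning outside the Cpr family. Outside these lists, the arginine synthesis genes *CG1315* (*Ass*) and *CG9510* (*Argl*) and the cuticle protein genes *Cpr11A* and *Cpr92F* were listed as lower, between 2.35 and 2.97-fold. *CCHa1* of the neuropeptide list and *Edg91* and *yellow-f* of the tanning list were listed as higher, and the remaining lists of these had no gene listed in that direction.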

How the data were processed

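Whole-head mRNA of 3 PTBI and 3 control samples was sequenced as single-end 50 bp reads from strand-specific libraries. Per the study's methods, Subjunc mapped the reads to the FlyBase genome (release not given in the sources used), and gene counts went through voom and limma. The submitters' processing notes name Subread and limma. The deposited RPKM values of each sample were used for all results. The deposited log2 columns (mean expression, fold change) and p-value columns (raw and adjusted) belong to the authors' own comparison and were not used. The listing covers genes past 2-fold and an adjusted p below 0.05.

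Columns were matched to samples by library name, and no column of other samples was present. Folds are control mean over PTBI mean of RPKM. For log2 differences and standard errors, the log2(RPKM + 1) values of all 367 listed genes were fitted without a block in limma 3.58.1 (R 4.3.3), and the fit was tested on simulated data. This scale understates the difference and the spread of low genes. The standard errors are moderated: each draws on the spread of all 367 listed genes as well as that of its own gene. No p is given, because the contrast chose the genes. Gene positions and exon lengths come from the Ensembl 115 annotation of BDGP6, in which 360 of 367 identifiers were found. With these lengths the RPKM of 357 genes gave whole reads in all 6 samples, within 0.02 reads, which set the library sizes; *Csas* did not. Floors are 3 reads over a group and cover counting error only. Over the 367 genes, deviations from the group means correlated between PTBI and control samples of the same number (0.24, 0.12 and 0.16). This passes the limit of 0.1 for treating the numbers as pairs, while the labels give no shared day or batch. The planned fit without a block was kept for the reported values, and the block was run as an alternative. With it the median standard error over the members was 0.10 in place of 0.14. The 3 samples of a group may differ by biological or technical spread, which these files do not separate.

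The members and gene lists were chosen with earlier results of these data known, and the role groups and symbol families were formed after the values were seen. Every member is named, with values per sample for the 12 with the largest fold, the 4 with the highest control level and up to 3 of each role group. List names were matched by current or older symbols. Promoter motifs had been planned, but sequence was not used here. Python 3.11.15, numpy 2.4.6, pandas 2.3.3 and matplotlib 3.10.9 were used. Alternatives covered group medians, each sample left out, a replicate block, pseudocounts of 0.1 and 5, centring, filters on low values, current symbols and other fold thresholds.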

Additional observations from a re-analysis of the deposited data

How the results depend on the processing

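The median fold over the 32 genes was between 2.32 and 2.46 when each sample was left out in turn, 2.46 with group medians, 2.38 with a replicate block (the geometric mean of the 3 same-numbered ratios), 2.41 with membership by current symbols (40 genes) and 2.23 over the 26 genes at 1 RPKM or more in controls. The number of genes at 3-fold lower or more was 6 to 9 with a sample left out and 8 with the replicate block. It was 13 at 2.5-fold and 3 at 4-fold. All 32 genes stayed without overlap with each sample left out. That had to follow from their separation with every sample in use, so nothing is read from it. The median log2 difference of -0.97 was -1.18 with a pseudocount of 0.1, -0.73 with 5, -1.06 over the 24 members at a mean of 1 RPKM or more, and -1.63 with each sample centred on its median listed gene, which was 0.66 higher in PTBI samples because most listed genes were higher. The replicate block left the median log2 difference at -0.97, as it must with 1 sample of each group per number. The median standard error of 0.14 was 0.10 with the block and 0.075 with a pseudocount of 5. Of 240 single-gene folds recomputed with group medians, a sample left out or the block, none reversed. None could, since every PTBI sample lay below every control sample. The lowest of these folds was 1.69, and 9 genes came under 2-fold in at least 1 of them. Depth limits *Sgs3*, *Sgs5*, *mey*, *nyo*, *Tsp42Eq*, *Tsp42Er*, *Ugt37b1* and *Osi19*, whose values rest on under 100 reads over the PTBI samples.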
